A study of Homo sapiens with 8 samples.

Results

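The exons described here lie between 2 short introns. An event of the deposited skipped-exon tables was included by coordinates alone, where the exon was 28 nt or longer and under 400 nt and both flanking introns were under 300 nt. In MCF10A 2782 of 82355 listed events qualified, in 2684 distinct exons of 1432 genes. In HMLE TWIST 3719 of 98244 events qualified, in 3539 exons of 1675 genes. Over both tables there were 4325 such events in 3997 exons of 1834 genes, out of 123924 events in all. At least 20 junction reads in every library of the line were found for 2510 of them in MCF10A and 3303 in HMLE TWIST, and these carry the levels below.

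The libraries came from 2 human breast lines, with 2 biological replicates in each of 4 groups. MCF10A is a non-tumorigenic mammary epithelial line, and HMLE TWIST is an immortalised mammary epithelial line in which a retroviral pBabe vector drives the transcription factor TWIST. Cells of each line received either the solvent DMSO or 10 µM emetine, an alkaloid that blocks translation elongation, and were collected after 24 hours. The series concerns compounds that regulate splicing through RNA G-quadruplexes, structures built from runs of guanine. HMLE TWIST carries the transgene in both of its groups and was compared with no matching line without it, so the lines differ in origin as well as in TWIST. Of 10 epithelial marker genes, 8 had listed events with a median of 20 or more reads in MCF10A and 0 had them in HMLE TWIST. Of 10 mesenchymal marker genes, 4 did in MCF10A and 9 in HMLE TWIST. These reads count splicing events only, and by them the epithelial markers were absent or at low counts in HMLE TWIST, whose labelled cell type is epithelial and which carries TWIST. The 3 blood and 3 endothelial marker genes had no listed event in either line, apart from PTPRC in HMLE TWIST with at most 2 reads.

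Splice sites are recognised in pairs. Where introns are long, the pair is thought to be set across the exon, and where introns are short it can be set across the intron, so that a weakly recognised short intron is more often retained than its neighbouring exon skipped. Exons between short introns lie often in compact genes rich in guanine and cytosine, and in untreated cells most of them are included in nearly every transcript. The inclusion level used here is the share of transcripts that contain the exon, from 0 to 1, computed from junction reads after correction for the number of positions a read can take.

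The first 4 exons that fell in both lines and are wholly coding, and the only wholly coding exon among the 5 highest-ranked ones that rose in both, are shown because they carry the largest shared responses. The letters are those of the exon in GENCODE 29 transcripts (GRCh38), 5′ to 3′ on the transcript strand, and capitals mark runs of 3 or more G. TEP1 lies at chr14:20381553-20381686 on the minus strand, HDAC7 at chr12:47795906-47796016 on the minus strand and ZNF384 at chr12:6678663-6678710 on the minus strand. GALT lies at chr9:34647492-34647567 on the plus strand and DIS3 at chr13:72781289-72781356 on the minus strand.
TEP1: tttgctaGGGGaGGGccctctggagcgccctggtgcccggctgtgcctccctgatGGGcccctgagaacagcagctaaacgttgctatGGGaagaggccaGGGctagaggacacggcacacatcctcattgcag
HDAC7: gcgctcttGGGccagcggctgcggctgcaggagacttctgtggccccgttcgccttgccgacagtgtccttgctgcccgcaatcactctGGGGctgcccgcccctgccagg
ZNF384: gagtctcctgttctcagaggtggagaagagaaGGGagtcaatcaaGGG
GALT: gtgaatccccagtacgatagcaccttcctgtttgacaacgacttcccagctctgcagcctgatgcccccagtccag
DIS3: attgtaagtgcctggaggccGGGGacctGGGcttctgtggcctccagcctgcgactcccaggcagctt
The TEP1 exon holds 5 such runs, those of HDAC7, ZNF384 and DIS3 hold 2 each, and that of GALT holds 0.

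The median short-intron exon had between 593.5 and 615.5 junction reads in the MCF10A libraries and between 587 and 900 in those of HMLE TWIST. Replicate libraries were separate by their counts, with a mean chi-square over short-intron events of 1.71 to 2.01 in the 4 groups, where pure sampling noise gives 1. Intervals on shares are 95% Wilson intervals over events and cover the counting error of events only. They treat events as independent, although events can share an exon, junction reads and the same libraries. The spread between replicates is not in them. Reads carry no molecular identifiers.

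Under emetine, short-intron exons were skipped more in both lines. An event was tested where the rarer of its forms also had 10 or more reads over the libraries, and it was called where the adjusted p of the quasi-binomial model was under 0.05 and the level moved by at least 0.1. In MCF10A 956 events in 641 genes were tested, and 136 of them (14.2%, interval 12.2 to 16.6) in 116 genes were called lower, against 5.15% of all 25522 tested events. Only 18 (1.88%) were called higher, against 7.9% of all tested events. HMLE TWIST gave 1489 tested events in 838 genes, of which 306 (20.6%, interval 18.6 to 22.7) in 234 genes were lower, against 7.91% of all 30290 tested events. There 14 (0.940%) were called higher, against 6.11% of all. Of the called short-intron events 88.3% were lower in MCF10A and 95.6% in HMLE TWIST, while the same shares over all called events were 39.4% and 56.4%.

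The shares also differed between intron classes. Where 1 intron was short and the other 300 nt or longer, 7.80% of tested events were lower and 5.58% higher in MCF10A, and 12.5% and 3.12% in HMLE TWIST. Where both introns were long, 3.98% were lower and 8.62% higher in MCF10A, and 5.85% and 7.0% in HMLE TWIST. The lower share was thus highest with 2 short introns and lowest with 2 long ones in each line, a description to which no test was applied. At the border of the rule, events whose longer intron measured 280 nt or more were lower in 16 of 98 cases in MCF10A and 35 of 144 in HMLE TWIST. Just outside it, at 300 nt and under 320 nt, 15 of 108 and 32 of 158 were lower.

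**Figure D1:**
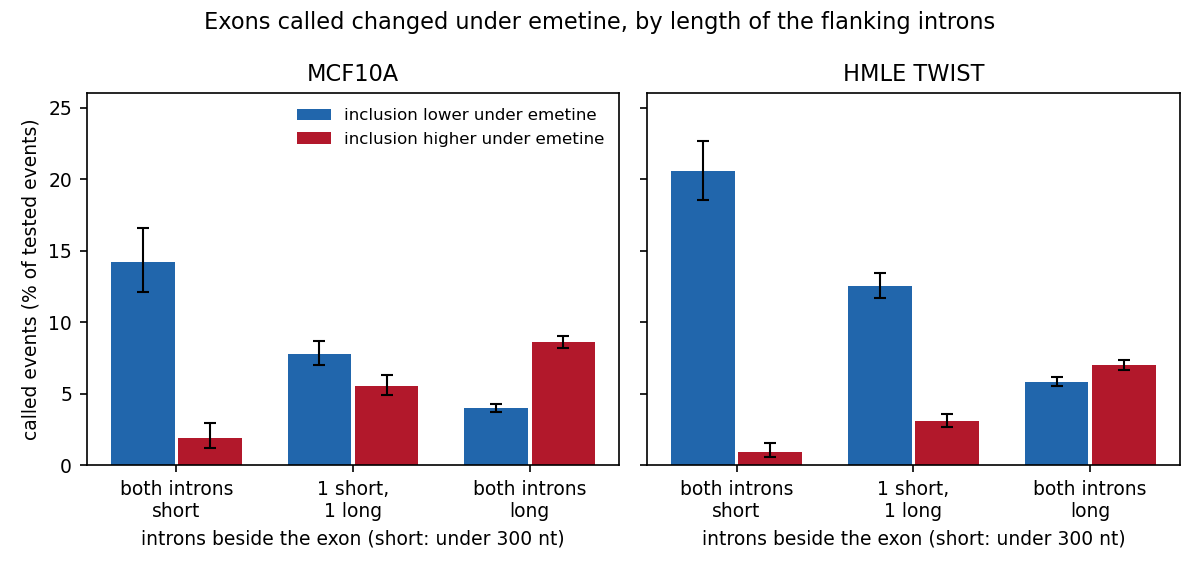
Share of tested events called lower (blue) or higher (red) under emetine in each line, by the length of the introns beside the exon. Error bars are 95% Wilson intervals that treat events as independent. With 2 short introns 14.2% were lower and 1.88% higher in MCF10A, and 20.6% were lower and 0.940% higher in HMLE TWIST.

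The shift was also present in the mean over all members with 20 or more reads, whether tested or not. In MCF10A the mean skipping was 6.37% and 6.39% in the DMSO libraries and 8.40% and 8.19% in the emetine libraries. In HMLE TWIST it was 5.11% and 5.08% with DMSO and 8.37% and 8.39% with emetine. Both emetine libraries were above both DMSO libraries in each line. In bulk libraries a change in some of the cells and a smaller change in all of them cannot be told apart. For exons between 2 long introns the same means were 14.2% and 14.4% with DMSO and 13.8% in both emetine libraries of MCF10A. In HMLE TWIST those exons were skipped at 12.7% and 12.9% with DMSO and 12.7% and 12.8% with emetine, so the groups overlapped.

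More members were without a skipping read in the DMSO libraries than in the emetine libraries. In MCF10A 54.5% and 54.8% of the 2510 members had no skipping read in the DMSO libraries, against 29% and 27.6% in the emetine libraries. In HMLE TWIST the shares were 57.2% and 56.8% with DMSO and 23.0% and 21.0% with emetine. The share also went down where 1 intron was long, from 49.0% and 47.7% to 29.2% and 29.3% in MCF10A and, in HMLE TWIST, from 51.5% and 51.9% with DMSO to 27.8% and 26.5%. Between 2 long introns it went from 44.4% and 42.0% with DMSO to 31.6% and 33.2% in MCF10A. In HMLE TWIST it went from 44.2% and 44.8% to 30.8% and 33.0%. Levels below 0.9 were found for 8.80% and 9.28% of members with DMSO and 14.2% and 13.7% with emetine in MCF10A. In HMLE TWIST the shares were 6.96% and 7.11% against 16.6% and 16.7%. The median number of reads per member went from 587 and 626 to 777 and 900 in HMLE TWIST and was 596 and 601.5 against 593.5 and 615.5 in MCF10A. What part the greater depth has in the HMLE TWIST shares without a skipping read was not tested. The change was negative, whatever its size, for 77.1% of the 2510 MCF10A members and 83.8% of the 3303 HMLE TWIST members, against 56.5% and 59.6% of all events with that depth. The median change over them was small, -0.00297 in MCF10A and -0.00463 in HMLE TWIST, against -0.000835 and -0.00124 over all such events.

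The filter on the rarer form bears on these counts, because an exon with almost no skipping in DMSO can pass it through its emetine reads. In MCF10A 460 of the 956 tested members reached 10 reads of the rarer form in the emetine libraries and not in the DMSO libraries, and in HMLE TWIST 924 of 1489 did. As a share of all members with 20 or more reads, 5.42% were lower in MCF10A and 9.26% in HMLE TWIST, against 1.96% and 3.03% of all events with that depth. With the rarer form counted in the DMSO libraries alone, an alternative chosen after seeing the data, 408 members were tested in MCF10A. Of these 87 (21.3%) were lower and 17 (4.17%) higher, against 5.6% lower and 12.5% higher among all events so tested. In HMLE TWIST 477 members were tested in this way, and 133 (27.9%) were lower and 13 (2.73%) higher, against 8.44% lower and 10.9% higher among all.

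The spread between replicates was small beside the change of the called members, which the rule for a call favours in itself. DMSO and emetine libraries did not overlap for 77.6% of tested members in MCF10A and 84.8% in HMLE TWIST, against 67.4% and 69.9% of all tested events. All 154 and 320 called members were without overlap, as were 3328 of 3331 and 4246 of 4247 called events of any class. For a named called event a lack of overlap thus adds no evidence. The median SD of the replicates of a called member was 0.0117 with DMSO and 0.0289 after treatment in MCF10A, and 0.00656 and 0.0208 in HMLE TWIST. The median change of the lower members was -0.196 in MCF10A and -0.195 in HMLE TWIST, and their median level in the respective lines was 0.965 and 0.987 with DMSO and 0.749 and 0.763 with emetine. A called fall of 0.3 or more was reached by 21 of 956 tested members in MCF10A, against 231 of all 25522 tested events. In HMLE TWIST it was reached by 75 of 1489, against 509 of 30290. The higher members started low, at a median of 0.0580 in MCF10A and 0.107 in HMLE TWIST, and rose by a median of 0.155 and 0.187. With limma on log2 odds 102 members were lower and 13 higher in MCF10A, against 3.3% lower and 4.58% higher among all events. In HMLE TWIST limma called 280 lower and 12 higher, against 6.06% and 3.89%. Leaving out either MCF10A emetine library (the first or the second listed) or either HMLE TWIST emetine library left 0 members called by the quasi-binomial model, whose dispersion prior then had 1.11 to 1.44 degrees of freedom against 9.45 and 6.28 with all libraries. Such fits leave 1 emetine library in the group. An alternative with 1 dispersion shared by all events, chosen after seeing the data, takes that dispersion as known and equal for every event. Its calls therefore do not show that the result stands without an emetine library.

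**Figure D2:**
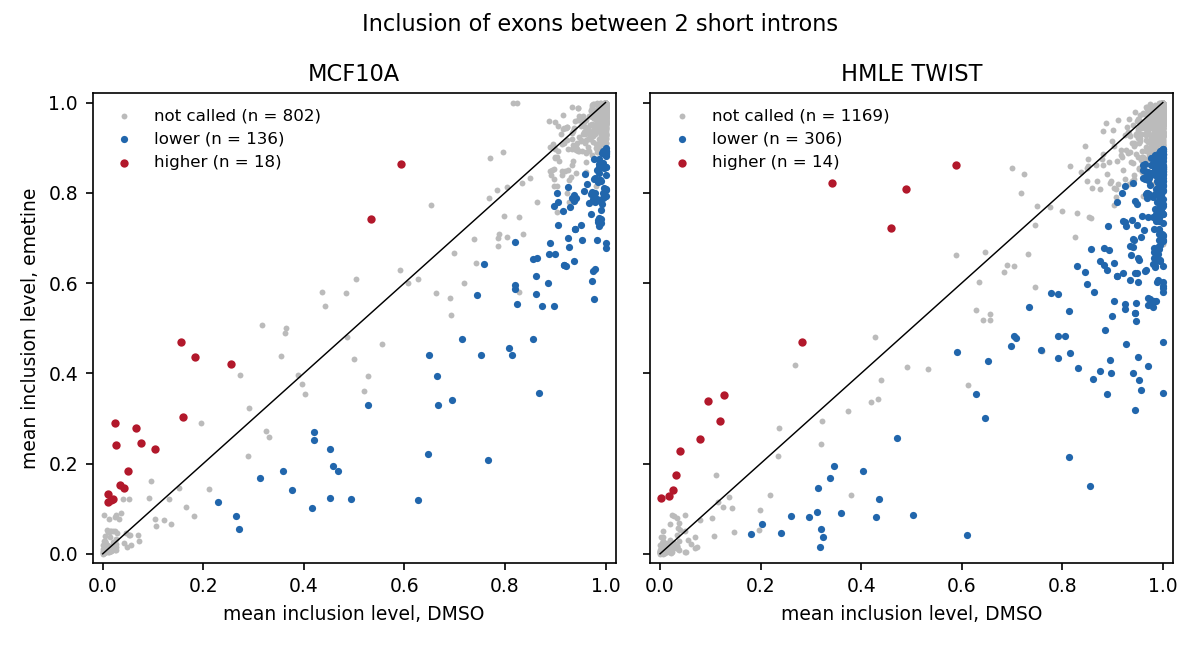
Mean inclusion level of each tested short-intron exon event with DMSO (horizontal axis) and with emetine (vertical axis) in each line; the line marks equal levels. Lower events (136 and 306) lie below it, at DMSO levels of 0.1 and above and mostly at high ones, and higher events (18 and 14) lie mainly at low DMSO levels.

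The level in DMSO limits the direction an exon can take, so within each range of that level the members were compared with exons between 2 long introns. Among members at 0.99 or more, which have no room to be called higher, 37 of 503 (7.36%) were lower in MCF10A and 127 of 905 (14.0%) in HMLE TWIST, against 2.72% and 4.22% of exons between long introns. Exons at such levels have few skipping reads in DMSO and can pass the filter on the rarer form through their emetine reads, so these shares are drawn from events selected in part by the response. Between 0.9 and 0.99, 55 of 247 (22.3%) and 123 of 366 (33.6%) were lower, against 5.69% and 7.43%. In the range from 0.1 to 0.9, where both directions are open, 44 of 124 members (35.5%) were lower and 7 higher in MCF10A. The same range held 56 lower (42.1%) and 7 higher of 133 in HMLE TWIST. Exons between 2 long introns in that range went the other way, with 6.29% lower and 22.8% higher in MCF10A and 9.58% and 21.7% in HMLE TWIST. Below 0.1, 11 of 82 members (13.4%) were higher in MCF10A and 7 of 85 (8.24%) in HMLE TWIST, against 15.9% and 11.6% of exons between long introns.

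Of the 784 short-intron exon events tested in both lines, 99 in 83 genes fell in both and 8 rose in both, while of all 19025 events tested in both 769 fell and 864 rose. Their rank was set by the line with the smaller change, and the adjusted p-values that follow are those of the quasi-binomial model. Coordinates in the deposited tables are GRCh37, per the submitters' processing notes. The first was the exon at chr14:20849712-20849845 of TEP1, which encodes a telomerase-associated protein that is also part of vault particles. Its level was 0.918 and 0.818 in the MCF10A DMSO libraries and 0.243 and 0.469 with emetine, and 0.9 and 0.811 against 0.110 and 0.191 in HMLE TWIST. Every emetine library was below every DMSO library. The means were 0.868 ± 0.0707 and 0.356 ± 0.160 (SD, n = 2) in MCF10A and 0.855 ± 0.0633 and 0.151 ± 0.0575 in HMLE TWIST. The changes of -0.512 and -0.705 had adjusted p = 0.000555 and 0.000202. GENCODE 29 annotates the TEP1 transcript without this exon as a target of nonsense-mediated decay, the pathway that removes messages with a premature stop codon during translation.

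Exons of HDAC7 and ZNF384 were among the first 10 too. The exon at chr12:48189689-48189799 of HDAC7, a class IIa histone deacetylase, had levels of 0.714 and 0.579 with DMSO and 0.216 and 0.226 with emetine in MCF10A. In HMLE TWIST the levels were 0.596 and 0.624 against 0.0526 and 0.0306, so that the exon was nearly absent from the treated libraries. The changes were -0.425 (adjusted p = 2.59e-05) and -0.569 (adjusted p = 5.88e-06). Its length of 111 nt is a multiple of 3, and both forms are annotated as protein coding. The exon at chr12:6787829-6787876 of ZNF384, a zinc-finger transcription factor, had 0.854 and 0.772 against 0.453 and 0.430 in MCF10A. In HMLE TWIST it had 0.840 and 0.786 against 0.212 and 0.218. Groups did not overlap, and the changes were -0.372 (adjusted p = 8.96e-06) and -0.598 (adjusted p = 6.10e-06).

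Exons of metabolic enzymes were among the shared falls. In GALT, the uridylyltransferase of galactose breakdown, the exon at chr9:34647489-34647564 had levels of 0.968 and 0.991 against 0.575 and 0.686 in MCF10A and 0.940 and 0.952 against 0.562 and 0.503 in HMLE TWIST. The changes were -0.349 (adjusted p = 9.33e-05) and -0.413 (adjusted p = 0.000379). GLB1L is related to beta-galactosidase, and its exon at chr2:220104642-220104816 lies between introns of 96 and 86 nt. It had no skipping read among 78 junction reads of the MCF10A DMSO libraries, which allows a skipping share of up to 3.85% of reads, and levels of 0.607 and 0.750 with emetine. Such limits are 3 reads over the junction reads, without length correction, and the skipping allowed in terms of levels is larger. In HMLE TWIST the GLB1L levels were 0.983 and 0.976 against 0.537 and 0.557. The changes were -0.322 (adjusted p = 0.0101) and -0.433 (adjusted p = 0.000318).

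Exons of TNK2, MIB2 and SCRIB were also among the first 10. The exon of TNK2, a tyrosine kinase that binds CDC42, at chr3:195594040-195594129 had levels of 0.849 and 0.896 against 0.547 and 0.551 in MCF10A and 0.845 and 0.905 against 0.398 and 0.410 in HMLE TWIST. MIB2, an E3 ubiquitin ligase of Notch signalling, had levels of 1 and 0.952 against 0.600 and 0.528 in MCF10A and 0.800 and 0.976 against 0.364 and 0.345 in HMLE TWIST, at the non-coding exon chr1:1560345-1560565. In SCRIB, a scaffold of epithelial cell polarity, the exon at chr8:144873836-144873910 had levels of 0.489 and 0.5 against 0.115 and 0.126 in MCF10A and 0.403 and 0.467 against 0.117 and 0.127 in HMLE TWIST. None of these groups overlapped. The changes in MCF10A and HMLE TWIST were -0.324 and -0.471 for TNK2, -0.412 and -0.534 for MIB2 and -0.374 and -0.313 for SCRIB, with adjusted p between 3.17e-07 and 0.00306.

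ROBO3, a receptor of axon guidance, had levels of 0.688 and 0.646 against 0.354 and 0.306 in MCF10A and 0.775 and 0.810 against 0.487 and 0.477 in HMLE TWIST, at chr11:124747833-124748027. TMEM120A, which encodes a membrane protein, had levels of 0.927 and 0.948 against 0.595 and 0.700 in MCF10A and 0.973 and 0.959 against 0.610 and 0.646 in HMLE TWIST, at chr7:75616856-75616920. Both fell in both lines, with changes of -0.337 and -0.310 for ROBO3 and -0.290 and -0.338 for TMEM120A and adjusted p between 3.01e-05 and 0.000215. The TMEM120A form without the exon is annotated as a target of nonsense-mediated decay.

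The 5 highest-ranked shared rises started from low inclusion. RP11-438J1.1, a transcribed locus named only by its clone, had levels of 0.192 and 0.118 against 0.516 and 0.422 in MCF10A and 0.123 and 0.130 against 0.371 and 0.333 in HMLE TWIST. In BRD2, a bromodomain reader of acetylated histones, the exon at chr6:32942798-32942889 had levels of 0.173 and 0.145 against 0.328 and 0.277 in MCF10A and 0.132 and 0.105 against 0.317 and 0.272 in HMLE TWIST. The BRD2 form that contains the exon is annotated as a target of nonsense-mediated decay. DIS3, the catalytic ribonuclease of the RNA exosome, had levels of 0.104 and 0.0467 against 0.283 and 0.206 in MCF10A and 0.0574 and 0.101 against 0.249 and 0.262 in HMLE TWIST. ATPAF2, an assembly factor of the mitochondrial ATP synthase, went from means of 0.0655 to 0.279 in MCF10A and 0.0951 to 0.338 in HMLE TWIST. An exon of ABHD11, a mitochondrial hydrolase, went from 0.0505 to 0.184 and from 0.0313 to 0.175. For all 5 exons both emetine libraries were above both DMSO libraries in each line. The changes were 0.314 and 0.225 for RP11-438J1.1, 0.143 and 0.176 for BRD2 and 0.169 and 0.176 for DIS3, with quasi-binomial adjusted p between 6.18e-05 and 0.0123. limma did not call BRD2 in either line (adjusted p = 0.109 and 0.0534) or DIS3 in MCF10A (adjusted p = 0.0749).

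**Figure D3:**
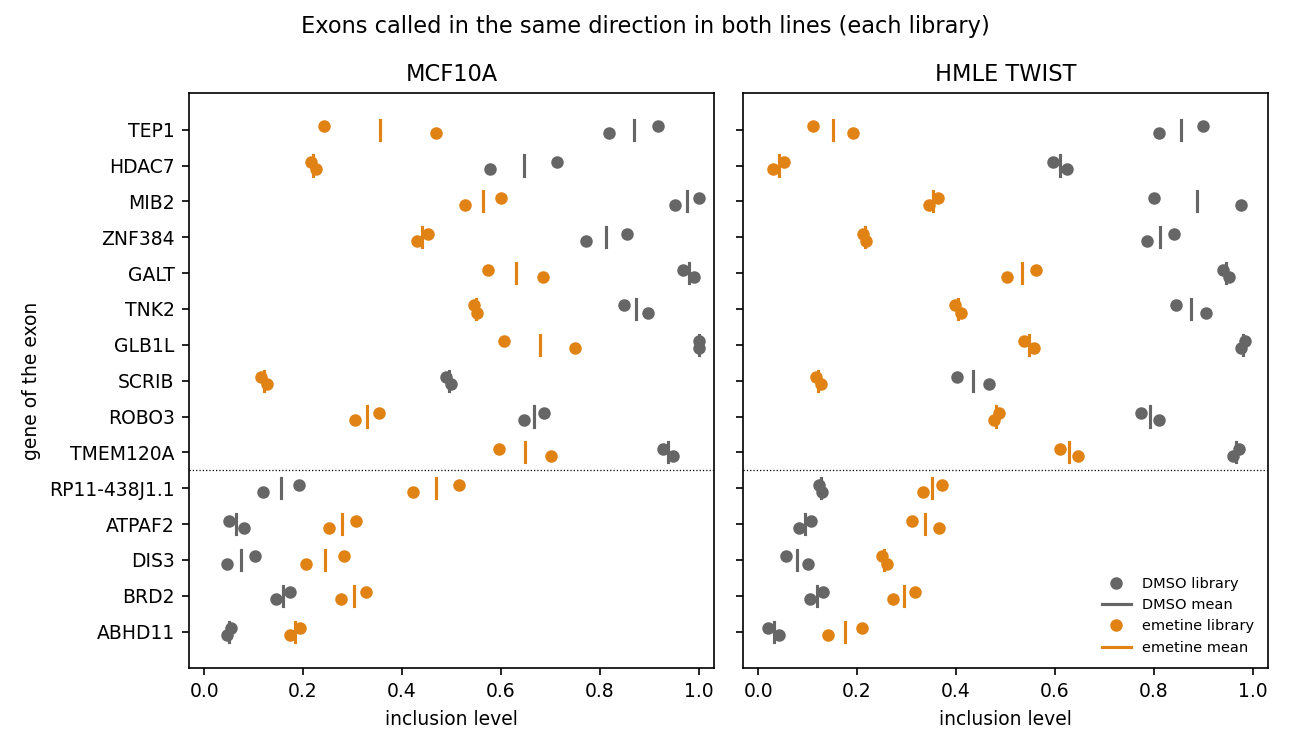
Inclusion level in each library (dots) and group mean (ticks) of the 10 highest-ranked exons that fell in both lines, above the dotted line, and the 5 that rose, below it, with DMSO in grey and emetine in orange. The TEP1 means were 0.868 and 0.356 in MCF10A and 0.855 and 0.151 in HMLE TWIST. No pair of groups overlaps in any of the 15 exons, as was so for every called member of each line.

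Ranked within 1 line, TEP1, HDAC7 and ZNF384 or MIB2 were again among the largest falls, and the members not yet described were these. In MCF10A RASSF7, a Ras-association domain protein, had levels of 0.589 and 0.665 against 0.152 and 0.0880 at chr11:563396-563478, an exon between introns of 78 and 79 nt. Its change was -0.507 (adjusted p = 0.000315). A non-coding exon of ZNF266, a zinc-finger gene, had 0.873 and 0.840 against 0.476 in both emetine libraries, a change of -0.381 (adjusted p = 0.00885). WASH6P had the largest fall of the line, -0.559, but it is a pseudogene with near-identical copies at other chromosome ends, so its reads cannot be assigned to it with certainty. In HMLE TWIST the exon of MINK1, a kinase of the STE20 family, at chr17:4795697-4795807 had 0.956 and 0.958 against 0.296 and 0.430, a change of -0.594 (adjusted p = 3.31e-05). UAP1L1, a relative of a nucleotide-sugar pyrophosphorylase, had 0.957 and 0.933 against 0.295 and 0.341, a change of -0.627 (adjusted p = 8.89e-05). Its skipping form is annotated as a target of nonsense-mediated decay. The exon of DALRD3 at chr3:49053252-49053305 had no skipping read among 42 junction reads of the DMSO libraries, which allows up to 7.14% of reads. Its levels were 0.384 and 0.328 with emetine.

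The largest rises within 1 line, which in MCF10A begin with RP11-438J1.1, differed widely in depth. In MCF10A NADK, the kinase that makes NADP from NAD, had levels of 0.0247 and 0.0251 against 0.271 and 0.307 at a non-coding exon (change 0.264, adjusted p = 7.10e-07). ATXN2L, a relative of ataxin-2 that binds RNA, had 0.115 and 0.250 against 0.454 and 0.419 (adjusted p = 0.0230), its shallowest library holding 20 reads. ETV1, an ETS-family transcription factor, had 0.697 and 0.490 against 0.960 and 0.767 (adjusted p = 0.0323). limma did not call ATXN2L or ETV1, with adjusted p of 0.0916 and 0.163. In HMLE TWIST MAN2C1, a cytosolic mannosidase, had 0.351 and 0.333 against 0.929 and 0.716 and 20 reads in its shallowest library. SNHG8, a host gene of a small nucleolar RNA, had 0.563 and 0.614 against 0.839 and 0.885 with at least 1098 reads in each library (change 0.274, adjusted p = 0.000106). MSH5-SAPCD1, a readthrough transcript, had 0.535 and 0.444 against 0.827 and 0.788, and NUDT17, a nudix hydrolase, had 0.448 and 0.471 against 0.725 and 0.721.

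Some genes had several lower events. In HMLE TWIST 49 of the 234 genes with a lower member had 2 or more of them and 13 had 3 or more. All 6 tested events fell in DALRD3 and in NDOR1, a reductase of cytosolic iron-sulfur protein assembly. All 3 tested events fell in COASY, which makes coenzyme A, in SLC27A3, a fatty acid transport protein, and in AFMID, CPNE1 and GALT. In MCF10A 17 of 116 genes had 2 or more lower events, and COASY and SLC27A3 had 3 of 3 there too. Events of 1 gene can share an exon or junction reads and are not independent. Both a lower and a higher event were found in 2 genes in MCF10A and 1 gene in HMLE TWIST. Named events do not stand for their whole gene. Beside its named rise, ABHD11 had events that changed by -0.160 and -0.201 in MCF10A and by -0.0616 and -0.0847 in HMLE TWIST. An event of ATXN2L changed by -0.250 and -0.314 in the respective lines. Beside its named fall, ROBO3 had an event that changed by -0.0844 in MCF10A and 0.187 in HMLE TWIST.

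The members were also counted by 13 gene lists. Members in genes of splicing regulators, decay factors, cytosolic and mitochondrial ribosomal proteins, the proteasome, translation factors, and RAB and ARF GTPases gave 0 calls in either line, and those of the MAP kinase cascade gave 0 in MCF10A, where 14.2% of all tested members were lower, and 20.6% in HMLE TWIST. These lists held 57 tested members in MCF10A and 68 in HMLE TWIST. Of them 19 and 33 had an unadjusted p under 0.05 in the quasi-binomial model, 0 of these moved by 0.1 or more, and limma called 0 in each line. Splicing regulators were represented by 14 tested members in 10 genes in MCF10A and 16 in 11 genes in HMLE TWIST, with median changes of -0.00246 and -0.000847. Outside the short-intron set the same list had 16 lower and 39 higher of 275 tested events in MCF10A and 25 lower and 34 higher of 295 in HMLE TWIST. Ribosomal protein members numbered 13 in each line, with median changes of 0.000107 and -0.000353. Outside the set that list had 0 lower and 2 higher of 150 events in MCF10A and 1 and 3 of 171 in HMLE TWIST. Proteasome genes had 1 and 3 of 109 and 1 and 0 of 128 there. Translation factors had 3 and 8 of 221 and 7 and 8 of 238, and mitochondrial ribosomal proteins 9 and 10 of 155 and 12 and 9 of 182. For several lists calls were thus few outside the short-intron set too.

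Calls in the other lists were all falls, as were 88.3% and 95.6% of all called members, and the shares of several lists lay near the 14.2% and 20.6% lower among all tested members. Enzymes of histone and arginine methylation had 1 lower of 7 tested members in MCF10A, in SETD5, and 5 of 9 in HMLE TWIST, in SETD5, KMT2B and KDM6B. Their median changes were -0.0470 and -0.114, against -0.0189 and -0.0264 over all tested members. Zinc-finger genes had 3 lower of 6 members in MCF10A and 4 of 8 in HMLE TWIST, with medians of -0.158 and -0.130, including ZNF384 in both lines. Aminoacyl-tRNA synthetases, which charge tRNAs, had 1 lower of 10 in MCF10A and 5 of 20 in HMLE TWIST, with medians of -0.0138 and -0.0295. TARS2 was called in both lines, and AARS2, QARS and VARS2 in HMLE TWIST. DNA repair genes had 4 lower of 12 and 5 of 21, with medians of -0.0242 and -0.0424. Among them the DNA polymerase gene POLM was called in both lines and POLD2, a polymerase subunit gene, in HMLE TWIST. Solute carriers had 5 lower of 17 and 4 of 21, with medians of -0.00749 and -0.0122, and the MAP kinase cascade had 2 lower of 7 in HMLE TWIST, in MAPK11 and MAPK12. Events of the zinc-finger list outside the short-intron set went in both directions, with 9 lower and 48 higher of 394 tested in MCF10A and 35 lower and 54 higher of 455 in HMLE TWIST.

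Highly covered members could be measured to small changes. An exon of RPS2, a protein of the small ribosomal subunit, had at least 68374 reads in each MCF10A library and a change of 1.02e-06, with adjusted p = 0.986. In KRT81, a hair keratin, the exon at chr12:52681380-52681505 changed by -7.18e-05 in MCF10A (adjusted p = 0.0996), and in FTH1, the ferritin heavy chain, the change was -3.06e-05 (adjusted p = 0.476). In HMLE TWIST RPLP0, of the ribosomal stalk, changed by 0.000108 (adjusted p = 0.302). These exons were chosen for their small change and depth.

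Length within the set followed no common order in the 2 lines. With introns of at most 200 nt in sum, 14 of 113 members (12.4%) were lower in MCF10A and 45 of 204 (22.1%) in HMLE TWIST. With a sum over 400 nt, 40 of 225 (17.8%) and 55 of 311 (17.7%) were lower. Exons over 60 and up to 90 nt were lower in 18.1% and 21.1% of cases, and those over 200 nt in 10.4% and 22.7%. The median exon length of lower members was 97 nt in MCF10A and 112 nt in HMLE TWIST, with medians of 150 and 135 nt for the upstream and 169 and 145 nt for the downstream intron. In their shallowest library the lower members had a median of 194 reads in MCF10A and 248 in HMLE TWIST, below the 498.5 and 580 of the members not called.

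The tested members with the shortest introns showed no single response. The exon of NDOR1 at chr9:140110519-140110640 lies between introns of 49 and 83 nt and had 0.871 and 0.963 against 0.916 and 0.903 in MCF10A, so that the groups overlapped. In HMLE TWIST it had 0.929 and 0.943 against 0.688 and 0.634, a change of -0.275 (adjusted p = 0.00301). Exons of LMF2 changed by -0.0474 in MCF10A and, at a neighbouring exon, by -0.0631 in HMLE TWIST, short of the 0.1 required. BOP1, which acts in ribosome biogenesis, had 0.480 and 0.249 against 0.603 and 0.399 in MCF10A, with overlapping groups. The INPPL1 event in HMLE TWIST has a listed gap of only 3 nt on 1 side, which is too short to be an intron. Its level changed by -0.0632.

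Exon matching to GENCODE 29, by gene, exon length and both intron lengths, succeeded for 942 of 956 tested members in MCF10A and 1473 of 1489 in HMLE TWIST. Wholly coding exons were lower in 101 of 714 cases (14.1%) in MCF10A and 243 of 1186 (20.5%) in HMLE TWIST, and non-coding ones in 28 of 198 (14.1%) and 55 of 256 (21.5%). Rises lay mostly in non-coding exons: 2 of 714 wholly coding members rose in MCF10A and 14 of 198 non-coding ones, and in HMLE TWIST 2 of 1186 and 11 of 256. Exons between 2 long introns showed the same order, with 4.77% of coding and 17.3% of non-coding ones higher in MCF10A and 4.47% and 13.6% in HMLE TWIST. Coding exons whose length is a multiple of 3 were lower in 12% of 267 and 16.8% of 429 cases, and the others in 15.4% of 447 and 22.6% of 757. Between 2 long introns the same shares were 3.35% and 4.5% for multiples of 3 and 6.15% and 8.02% for the others. In each class the exons that shift the reading frame had the higher share. Events could pass the filter on the rarer form through their emetine reads here too.

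The annotation of the skipping form divided the members further. Where GENCODE 29 marks the form without a coding exon as a target of nonsense-mediated decay, 19 of 55 members (34.5%) were lower in MCF10A and 28 of 70 (40%) in HMLE TWIST, and 0 were higher. Where that form is protein coding, 37 of 224 (16.5%) and 66 of 252 (26.2%) were lower. Where it is annotated otherwise, 15 of 65 (23.1%) and 29 of 79 (36.7%) were lower, close to the decay targets in HMLE TWIST. Where no transcript without the exon is annotated, 30 of 370 (8.11%) and 120 of 785 (15.3%) were lower. Exons between 2 long introns showed the same order at lower shares. For decay, other, protein-coding and unannotated forms these were 12%, 9.32%, 4.08% and 3.73% in MCF10A. In HMLE TWIST they were 17.2%, 12.8%, 5.84% and 4.66%. By the form with the exon, over all matched members, decay targets were lower in 11 of 97 cases and higher in 9 in MCF10A. In HMLE TWIST 31 of 136 (22.8%) were lower and 7 higher. Between 2 long introns 2.02% were lower and 18.2% higher in MCF10A, and 3.63% and 13.3% in HMLE TWIST. Where no transcript holds the exon between these neighbours, 4 of 18 and 20 of 46 (43.5%) members were lower. Tested events of every class here could pass the filter on the rarer form through their emetine reads. These shares are thus drawn from events selected in part by the response, and classes were not counted with the DMSO libraries alone. Emetine blocks translation, on which nonsense-mediated decay depends. A change of splicing and a slower loss of the skipping form therefore cannot be told apart in these libraries.

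**Figure D4:**
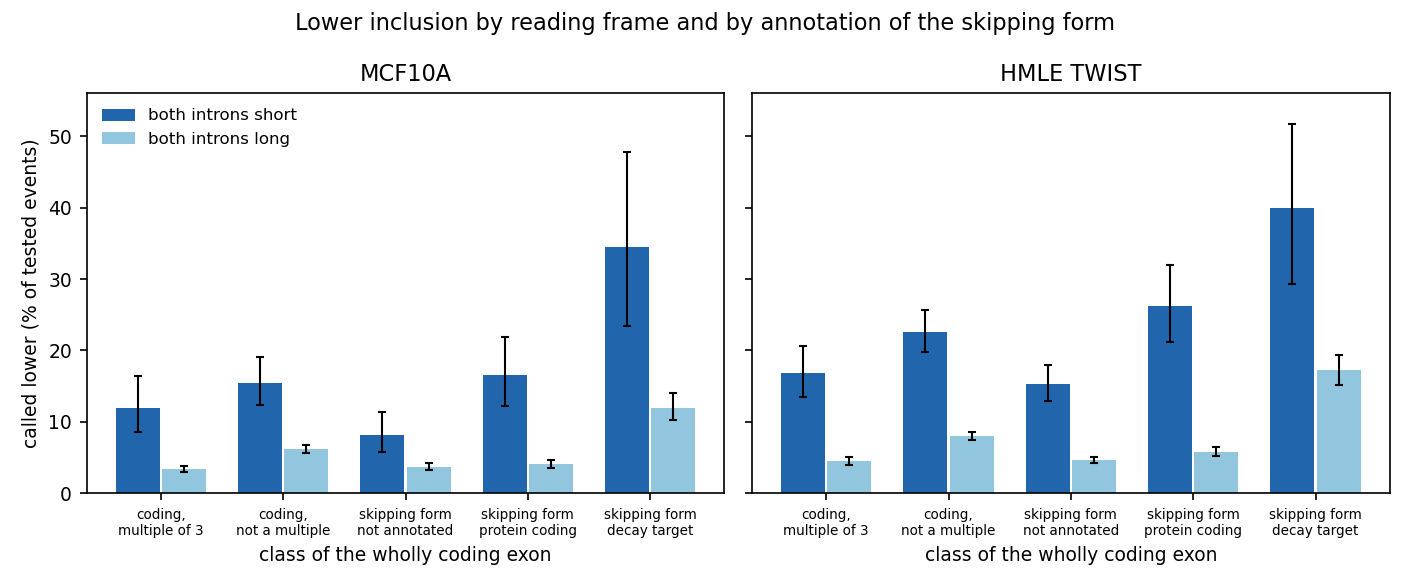
Share of wholly coding exon events called lower under emetine, by reading frame and by the GENCODE 29 annotation of the form without the exon, for exons between 2 short (dark) and 2 long (light) introns. Error bars are 95% Wilson intervals that treat events as independent. With a skipping form marked as a target of decay, 34.5% of short-intron events in MCF10A and 40% in HMLE TWIST were lower. Between long introns 12% and 17.2% were lower. Tested events could pass the filter on the rarer form through their emetine reads.

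The exons share a base composition that the rule did not use. Tested members had a median GC content of 59.0% in MCF10A and 59.3% in HMLE TWIST, against 48.6% and 50% over all tested exons of the same length range. GGG occurred on the transcript strand of 80.6% and 82.8% of tested members, against 66.2% and 68.1% of all tested exons, and CCC, its complement on the other strand, in 81.6% and 82.7% against 66.6% and 68.6%. Exons with 1 short and 1 long intron lay between, at a median GC content of 54.5% and 55.7%. They held GGG in 73.0% and 74.5%. Within the members, GGG was found in 87.3% of lower exons against 79.1% of those not called in MCF10A, and in 86.4% against 81.6% in HMLE TWIST. The few higher members held it as often or more, in 88.9% of 18 exons and 100% of 13. Over all tested exons in MCF10A it was found in 65.2% of lower and 66.3% of not called ones, and in HMLE TWIST in 72.7% and 67.9%. The number of GGG runs per 100 nt was 2.09 in lower and 1.88 in not called exons in MCF10A, and 2.13 and 1.82 in HMLE TWIST. The few higher exons had 1.79 in MCF10A and 2.45 in HMLE TWIST. A match of these letters is a description of the exon and no sign of a folded structure, and as printed above the GALT exon fell with 0 runs.

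The changes in the 2 lines were set side by side, and the median was more negative in HMLE TWIST. Of the 784 members tested in both, 131 were called in MCF10A and 239 in HMLE TWIST, and the 107 called in both make up 81.7% of the former and 44.8% of the latter, against 59.6% and 49.7% over all events. All 107 moved the same way, as did 1633 of the 1648 events called in both lines over the whole tables. The median change over the 784 was -0.0189 in MCF10A and -0.0406 in HMLE TWIST, and 582 (74.2%) had the more negative change in HMLE TWIST, against 59.0% of all 19025 events tested in both. Across these events the changes correlated with Pearson's r = 0.725 and Spearman's rho = 0.739, near the 0.707 and 0.676 of all events, a description over events that share the same 8 libraries.

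The term for line by treatment tested the difference between the lines on the scale of log odds, while the differences printed here are of inclusion levels. The 2 scales can part: an exon of PFAS differed by -0.0288 in level at adjusted p = 0.0074 by this term. An exon of COL16A1 differed by -0.315 at adjusted p = 0.174. The term called 25 of the 784 members (3.19%), against 2.81% of all events, with 22 of them more negative and 3 more positive in HMLE TWIST, against 1.9% and 0.904% of all events. limma called 0, with a smallest adjusted p of 0.112, although 148 members had an unadjusted limma p under 0.05. The share of members that the quasi-binomial term called was thus near that of all events. Without MCF10A DMSO replicate 2 the term called 13 members, and without HMLE TWIST DMSO replicate 1 or 2 it called 14 or 16. Among the called differences, an exon of C1orf52 had levels of 0.579 and 0.603 against 0.644 and 0.614 in MCF10A and 0.585 and 0.673 against 0.336 and 0.373 in HMLE TWIST. An exon of NDOR1 at chr9:140109880-140109973 had 0.913 and 0.888 against 0.656 and 0.670 in MCF10A. In HMLE TWIST it had no skipping read among 307 junction reads with DMSO, which allows up to 0.977% of reads, and levels of 0.490 and 0.451 with emetine. ETV1 rose in MCF10A and had 0.518 and 0.547 against 0.454 and 0.366 in HMLE TWIST (adjusted p = 0.117).

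**Figure D5:**
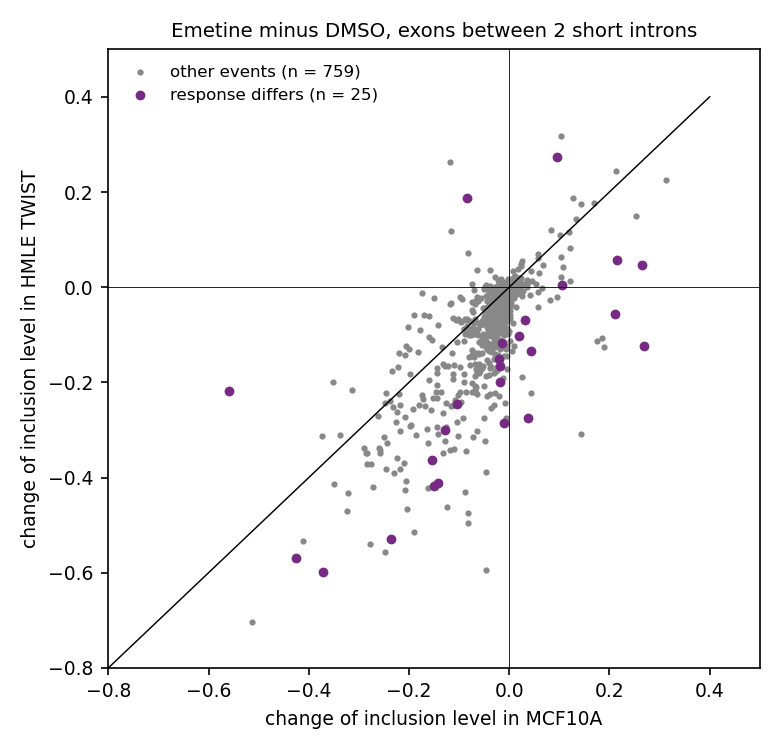
Change of inclusion level (emetine minus DMSO) of the 784 short-intron exon events tested in both lines, MCF10A on the horizontal and HMLE TWIST on the vertical axis, with the diagonal of equal change. Purple marks the 25 events whose response differed between the lines, and 582 events had the more negative change in HMLE TWIST.

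The lines were also compared under DMSO alone. The level with DMSO differed between the lines in 28 of the 784 members (3.57%), against 5.52% of all events, 12 of them higher in HMLE TWIST and 16 lower, against 1.92% and 3.6% of all events. limma called 14 members, against 1.99% of all, and 221 of the 784 members and 4621 of all 19025 events had an unadjusted limma p under 0.05. Chosen after their values were seen, PCK2, a mitochondrial enzyme of glucose synthesis, had mean levels of 0.905 in MCF10A and 0.433 in HMLE TWIST, and SAT2, a polyamine acetyltransferase, had 0.627 and 0.891. Both were called by the quasi-binomial model (adjusted p = 5.94e-19 and 5.23e-12) and by limma (adjusted p = 0.00668 and 0.0198).

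By the authors' deposited table, short-intron events numbering 203 reached the same thresholds in MCF10A, 175 lower and 28 higher under emetine, and 430 in HMLE TWIST, 412 lower and 18 higher. Over all events the authors' deposited table gave 2294 lower and 3410 higher in MCF10A and 3983 lower and 3477 higher in HMLE TWIST. Every short-intron event called here was also under a false discovery rate of 0.05 in the authors' deposited table and had the same sign there. Among events of any class that rate was met by 4243 of 4247 calls for HMLE TWIST and 3324 of 3331 for MCF10A. The sign was the same for every call. Both sets of calls come from the same junction counts, so their overlap is no independent evidence.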

How the data were processed

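Polyadenylated RNA of the 8 libraries was sequenced as stranded pairs of reads, per the labels' protocols. The deposited tables hold, per exon event, whole-number counts of junction reads for inclusion and skipping, in the rMATS format per the file headers. STAR 2.5.3a and GRCh37 are named in the submitters' processing notes, and the rMATS version and annotation release are not given in the sources used here. The authors also deposited a p-value and a false discovery rate per event, and a difference of inclusion levels, used here as a score for its sign and size. Sample 1 was taken as DMSO and sample 2 as emetine from the order in each table's name. The values in a cell carry no replicate number, and the first was called replicate 1.

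Each event with 20 or more reads in every library and 10 or more of the rarer form was fitted with a quasi-binomial model of its counts (Python 3.11.15). Dispersions were moderated over all events with limma 3.58.1 in R 4.3.3 and floored at 1. The test was two-sided, and p-values were adjusted by Benjamini-Hochberg over all tested events. limma on log2 odds, with 0.5 added to each count, was the other test. Both were tested on simulated data. Exon letters and annotations came from GENCODE 29 (GRCh38), matched by gene and lengths, and letters are printed for wholly coding exons only, so the ranked non-coding exons of MIB2, RP11-438J1.1 and ATPAF2 were passed over.

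The named events were the first 10 lower and 5 higher shared by both lines, the first 6 lower and 4 higher in each line, the 4 largest called differences between the lines, the 3 with the shortest introns and the 3 deepest with a change under 0.02 in each line. Members and gene lists were chosen with earlier results of these data known. Alternatives changed the intron limit, read filters, length correction, size of change, dispersion, test, events per exon and replicate block, and left out each library in turn. One called gene of the lists is not reported here by name.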

Additional observations from a re-analysis of the deposited data

Results flagged for a closer look

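Among the 25 short-intron exon events called by the line-by-treatment term of the quasi-binomial model, 4 had the largest differences in size, while some events that were not called differed by more. The change in HMLE TWIST minus that in MCF10A was -0.393 for ETV1 (adjusted p = 0.0115), 0.339 for WASH6P (adjusted p = 0.0322), -0.312 for C1orf52 (adjusted p = 0.000106) and -0.293 for NDOR1 (adjusted p = 0.00915). By limma the adjusted p was 0.309, 0.181, 0.221 and 0.112, so none of the 4 was called there.

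The C1orf52 difference was called without each library in turn. The ETV1 difference was not called without MCF10A DMSO replicate 2 (adjusted p = 0.265) or MCF10A emetine replicate 1 (adjusted p = 0.161). The WASH6P difference was not called without either MCF10A DMSO library, either HMLE TWIST DMSO library, MCF10A emetine replicate 1 or HMLE TWIST emetine replicate 2, with adjusted p from 0.0504 to 0.137. The NDOR1 difference was not called without MCF10A DMSO replicate 2 (adjusted p = 0.0915), HMLE TWIST DMSO replicate 1 (adjusted p = 0.0769) or replicate 2 (adjusted p = 0.0620).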

How the results depend on the processing

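No called change of a named event turned its sign under an alternative that gave a value. Among changes that were not called, those of the NDOR1 exon at chr9:140110519-140110640 in MCF10A and of RPS2 in both lines did so when 1 library was left out. The number of short-intron exon events called, and of those lower, moved with the definition of the set. With an intron limit of 200 nt, 64 were called and 59 lower in MCF10A, and 159 and 156 (98.1% lower) in HMLE TWIST. With 500 nt the counts were 300 and 251, and 561 and 513 (91.4% lower). With a change of at least 0.05 they were 249 and 225, and 491 and 475, and with at least 0.2 they were 71 and 64, and 155 and 149. Without length correction 81.25% of calls were lower in MCF10A, and in HMLE TWIST 202 were called and 186 lower (92.1%). With the rarer form counted in DMSO alone, chosen after seeing the data, 87 were lower in MCF10A, and 146 were called and 133 lower (91.1%) in HMLE TWIST.

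Leaving out 1 library gave 0 to 139 calls in MCF10A (0 to 125 lower) and 0 to 284 in HMLE TWIST (0 to 275 lower). The zeros were the fits without an emetine library. With 1 dispersion shared by all events, an alternative chosen after seeing the data, those fits called events in both lines. That dispersion is taken as known and equal for every event, so these calls do not offset the zeros. The replicate block called 0 events and 0 lower in each line by the quasi-binomial model, 121 and 272 having an unadjusted p under 0.05 and a change of at least 0.1. With the shared dispersion the replicate block called 159 and 328, 140 and 314 of them lower. Deviations of libraries at the same listed position correlated at 0.0177 in MCF10A and 0.00667 in HMLE TWIST over all tested events. Sampling noise enters these deviations and the replicate number was taken from the listed order, so they do not settle whether the libraries were paired.

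The response differed between the lines in 9 events at 200 nt, 46 at 500 nt, 12 at a difference of at least 0.2, 0 by limma and 0 with the replicate block, where 61 and 42 had an unadjusted p under 0.05 and a difference of at least 0.1. Leaving out 1 library gave 13 to 25. The untreated lines differed in 9 events at 200 nt, 57 at 500 nt, 43 at 0.05, 12 at 0.2, 14 by limma and 3 with the replicate block. Over the 65 named results, 1269 values under alternatives stayed on the same side of the threshold, 204 lost the call and 2 gained it. With 2 libraries a group, small changes of shallow exons were not detectable.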
